A study of Mus musculus with 6 samples.

Results

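The neuronal miRNAs miR-124, miR-9 and miR-128, the muscle miRNAs miR-1a, miR-133a, miR-133b and miR-206, and the liver miRNA miR-122 were examined in a mouse colon carcinoma line. All mouse probes that bear one of these names were taken, both arms of each hairpin, whatever their signal. This gave 18 arms out of the 1126 mouse probes of the array, 7 neuronal, 9 from muscle and 2 from liver. The samples were 6 cultures of CT26, a colorectal cancer line of BALB/c mouse origin. Of these, 3 carried the vector shRNA-TGF-β1-pSUPER gfp-neo, which expresses a short hairpin RNA against the cytokine TGF-β1 (the knockdown), and 3 carried shRNA-Control-pSUPER gfp-neo (the control). Each line was sampled at 24, 48 and 72 h, with a single culture and a single array at every time. The transfection is described as stable and the times are worded as hours of transfection, so their starting point is unsettled, and whether a line is a clone or a pool was not given in the sources used here.

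miRNAs are short RNAs cut from a hairpin precursor, and they guide Argonaute proteins to messages that pair with the seed, bases 2 to 8. Usually one arm of the hairpin is retained and the other is degraded. miR-124 and miR-9 are abundant in neurons and neural progenitors and favour the neuronal programme, and miR-128 is enriched in brain. miR-1 and miR-133 are made together in heart and skeletal muscle, and miR-206 with miR-133b in skeletal muscle, where they act in myoblast differentiation. miR-122 dominates the miRNA content of hepatocytes. The 8 are best known from tissues other than colon epithelium, and their probes were taken as out of lineage for that reason. Whether CT26 cells make any of them was not measured by other means.

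The mature sequences show how far members resemble each other and which letters a probe has to tell apart. RefSeq (GRCm38.p6) gave a sequence for 10 of the 18 arms, and those the results turn on follow, 5′ to 3′ with the seed in capitals.
miR-9-5p: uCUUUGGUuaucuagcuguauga
miR-9-3p: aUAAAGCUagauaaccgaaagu
miR-128-3p: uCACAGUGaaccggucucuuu
miR-128-1-5p: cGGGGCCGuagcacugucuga
miR-128-2-5p: gGGGGCCGaugcacuguaagaga
miR-1a-1-5p: aCAUACUUcuuuauaugcccaua
miR-206-5p: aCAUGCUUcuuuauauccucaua
miR-206-3p: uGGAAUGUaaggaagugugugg
miR-133b-3p: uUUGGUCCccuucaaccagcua
miR-133b-5p: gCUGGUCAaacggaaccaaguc

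Among the 10 arms with a sequence, the 5p arms of miR-1a-1 and miR-206 are the closest pair by position, with the same base at 20 of 23 positions. The arms without a sequence, miR-133a-3p and miR-1a-2-5p among them, were not compared, so closer pairs may exist. Counted from the 5′ end, miR-206-5p differs from miR-1a-1-5p by A5G, G17C and C19U, and the first of these lies in the seed. The 5p arms of miR-128-1 and miR-128-2 share the seed GGGGCCG. Several of these hairpins are encoded more than once: miR-9 has the genes Mir9-1, Mir9-2 and Mir9-3, and miR-128 has Mir128-1 and Mir128-2, so a probe for a shared arm cannot tell the loci apart. In the RefSeq gene order Mir206 stands next to Mir133b, and Mir1a-1 next to Mir133a-2.

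Signal was read as the foreground minus the local background intensity of a spot, averaged over the 4 spots of a probe, in arbitrary units that were not scaled between arrays. A mean of 50 was taken as detected. Brightness differs between probes for reasons other than amount, so no arm is ranked against another by its level. In RNA from whole cultures, fewer cells of a type and less RNA per cell cannot be told apart. The median local background of an array lay between 89 and 181. Of the mouse probes, 344 (30.6%), 370 (32.9%) and 345 (30.6%) passed 50 on the knockdown arrays of 24, 48 and 72 h, and 374 (33.2%), 321 (28.5%) and 351 (31.2%) on the control arrays. One stretch of the control array of 72 h stood apart: 709 spots, 4.48% of 15840, had a local background over 2 times the array's median, and 707 of them lay in blocks 19 to 36. On each of the other 5 arrays at most 26 spots did. The 7 member spots in that stretch belonged to miR-122-3p, miR-124-3p, miR-133a-3p, miR-133b-3p and miR-206-5p, and their means on that array are also given without those spots. The array carries no probe for the Tgfb1 message, so the knockdown itself was not measured.

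Members passed on all, on some or on none of the arrays. On all 6 arrays 4 of 18 arms passed 50 (22.2%), miR-9-3p, miR-1a-1-5p, miR-206-3p and miR-122-3p, beside 193 of the 1126 mouse probes (17.1%). On at least 1 array 9 of 18 passed (50%), beside 528 mouse probes (46.9%), and the other 9 arms passed on none, beside 598 mouse probes (53.1%). By array, 6, 6 and 5 member arms passed in the knockdown at 24, 48 and 72 h (33.3%, 33.3% and 27.8%), and 8, 7 and 5 in the control (44.4%, 38.9% and 27.8%). Without the spots of high background the count of the control at 72 h was 7, beside 373 mouse probes (33.1%). Arms of neuronal, muscle and liver miRNAs thus passed at shares near those of mouse probes as a whole, and the count says nothing particular about them.

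**Figure D1:**
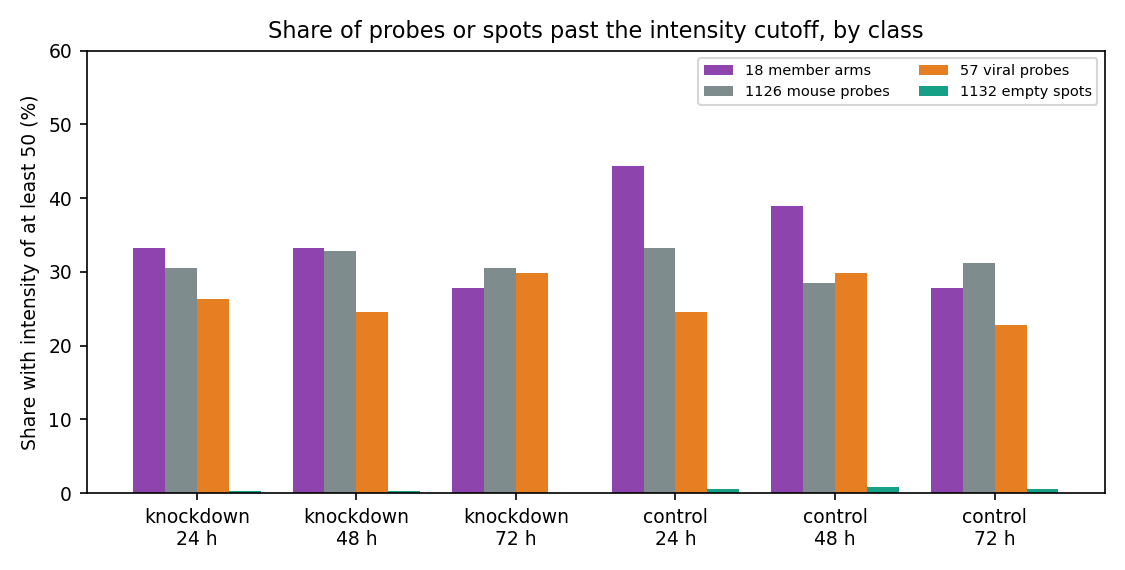
Percent of probes with a mean background-subtracted intensity of at least 50 on each of the 6 arrays, for the 18 member arms, the 1126 mouse probes, the 57 viral probes and, spot by spot, the 1132 empty spots. On every array the member arms lie between 27.8% and 44.4% and the viral probes between 22.8% and 29.8%, while empty spots stay under 1%.

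Among the neuronal arms, miR-9-3p passed on every array. Its mean intensity was 264.5, 748.75 and 360.75 in the knockdown at 24, 48 and 72 h and 471.75, 394.75 and 536.25 in the control. The lines overlapped, with both the lowest and the highest array in the knockdown. The opposite arm, miR-9-5p, the one usually named as the guide against neural progenitor messages, read -11, 594.75 and 12.25 in the knockdown and 96.25, -84.75 and 168.25 in the control. It passed on 3 arrays, the knockdown of 48 h and the control of 24 and 72 h, so the line that was detected switched between times.

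The miR-124-3p probe, for the arm that represses non-neuronal messages in neurons, read 253, 177 and 42.5 in the knockdown and 185.25, 135.75 and -441.5 in the control. It passed on 4 arrays, those of 24 and 48 h. The negative value came from the stretch of high background: the pair of spots in block 12 read 90 and 72 over local backgrounds of 100 and 102, and the pair in block 30 read -1242 and -686 over 1411 and 773. Without the spots of high background its mean there was 81 and miR-124-3p passed on 5 arrays. Its partner miR-124-5p read between -57.75 and 14.75 and passed on none. The 3 arms of miR-128 (miR-128-3p, miR-128-1-5p and miR-128-2-5p) were below 0 on all 6 arrays.

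Among the muscle arms, miR-1a-1-5p passed on every array, with 337.25, 143.25 and 79.75 in the knockdown and 199.75, 327.5 and 299.5 in the control. The knockdown value was lower at each later time while the control of 24 h was the lowest of its line, and the lines overlapped. The arm that carries the known activity of miR-1, miR-1a-3p, was below 0 on all 6 arrays, and miR-1a-2-5p stayed between -25.5 and 48.5. The related miR-206-3p, which has the seed of miR-1a-3p and acts in skeletal muscle differentiation, passed on every array, with 60.5, 323.5 and 56.75 in the knockdown and 144.5, 60.25 and 129.25 in the control. It stood between 56.75 and 60.5 on 3 arrays, and all 4 of its spots reached 50 on only 3. Its partner miR-206-5p read between -171.75 and -13.5, the lowest value on the control array of 72 h, where it was -48.5 without 2 spots of high background. So the probes of miR-1a-1-5p and miR-206-5p, whose targets share 20 of 23 bases, differed on every array: the first passed on all 6 and the second was below 0 on all 6.

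The miR-133 arms lay near the cutoff. The miR-133a-3p probe read 19.75, -41.25 and -0.25 in the knockdown and 55.5, 82.5 and -180.25 in the control, passing on the control arrays of 24 and 48 h. On the control array of 72 h its spots read 57 and 69 in block 12 and -796 and -51 in block 30. Of these only -796 had a high background, and without it the mean was 25, still below the cutoff. The miR-133b-3p probe read 54.25, -12.75 and 14.5 in the knockdown and 45.5, 120.75 and 40.5 in the control. It passed on 2 arrays, and on 3 without a spot of high background on the control array of 72 h, where the mean was then 74.3. The opposite arm miR-133b-5p read 7.75, 40.5 and 88.75 in the knockdown and 93.25, 24.25 and 23.5 in the control, and passed on 2 other arrays. The arms of this cluster thus did not pass together: miR-206-3p passed on 6 arrays where miR-133b-3p, encoded beside it, passed on 2. The miR-133a-5p probe was below 0 throughout.

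The liver miRNA gave the same kind of contrast. Its lesser arm, miR-122-3p, passed on every array, with 615.25, 774.25 and 1184.75 in the knockdown and 586.5, 505 and 445.25 in the control. The 3 knockdown values all lay above the 3 control values. Without 1 spot of high background the control value of 72 h was 406. The arm that makes up the bulk of hepatocyte miRNA, miR-122-5p, lay between -77.5 and -39, below 0 on all 6 arrays. Over all 18, the 9 arms that never passed ranged from -171.75 to 48.5, and from -120 to 48.5 without the spots of high background, and 7 of them were below 0 on every array.

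**Figure D2:**
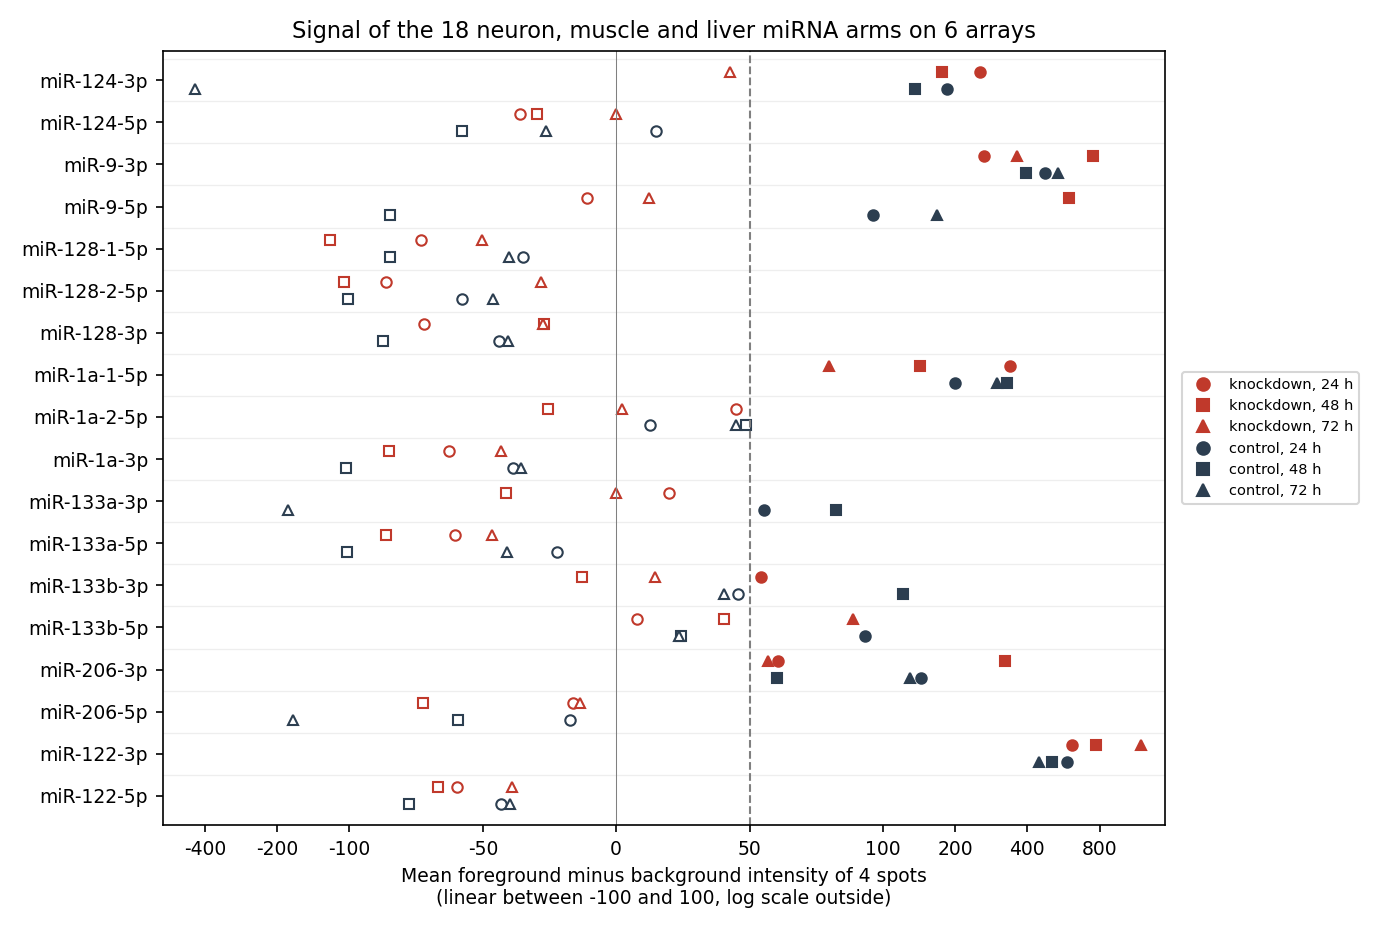
Mean background-subtracted intensity (arbitrary units, linear between -100 and 100 and logarithmic outside) of the 18 arms on each array, red for knockdown and dark for control, with a symbol for each time and filled symbols at or above the dashed cutoff of 50. miR-9-3p, miR-1a-1-5p, miR-206-3p and miR-122-3p are filled on all 6 arrays, and the arms of miR-128 are below 0 on all 6.

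Set by the role of the arm, 8 of the 18 are the arms usually found in tissue: miR-124-3p, miR-9-5p, miR-128-3p, miR-1a-3p, miR-133a-3p, miR-133b-3p, miR-206-3p and miR-122-5p. Of these, 1 passed on all 6 arrays (miR-206-3p), 4 on some and 3 on none. Of the 10 opposite arms, 3 passed on all 6, 1 on some and 6 on none. Of the mouse probes 17.1% passed on all 6 and 53.1% on none, and with so few arms the roles were not compared by a test. In miR-1a and miR-122 the usual arm was below 0 on every array while an opposite arm passed on every array. The deposited values do not tell whether those opposite arms were present or their probes bound other RNA, which was not tested.

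The viral probes give the signal of probes whose targets the labels do not place in these cells. The array holds 57 probes for miRNAs of murine cytomegalovirus and murine gammaherpesvirus 68, and no infection is mentioned. On the knockdown arrays 15, 14 and 17 of them passed 50 at 24, 48 and 72 h (26.3%, 24.6% and 29.8%), and on the control arrays 14, 17 and 13 (24.6%, 29.8% and 22.8%). On all 6 arrays 9 of 57 did (15.8%), a share beside the 22.2% of the members. All 9 were probes of murine gammaherpesvirus 68, and no cytomegalovirus probe passed on more than 4 arrays. The pooled shares are thus not an even rate over both viruses. The probe of mghv-miR-M1-8-5p ran from 1186.5 to 4231.25 and that of mghv-miR-M1-6-5p from 434.75 to 1291. On every array the brightest viral probe exceeded every member. Empty spots passed 50 at shares from 0.0883% to 0.795%, and of 7 negative control probes 1 passed, at 62.25 on 1 array. Empty spots, read singly, thus seldom reached 50. As a mean of 4 spots, 22.8% to 29.8% of the probes without a labelled target reached it, beside 28.5% to 33.2% of mouse probes. The baselines differed too: by array the median was 0 to 1 for empty spots and -74.75 to -28.75 for negative control probes.

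For the members past 50 on all 6 arrays, the viral probes at least as bright were counted, as a comparison of signals and not of amounts. For miR-122-3p their number ran from 1 to 4 of 57 over the arrays, for miR-9-3p from 2 to 6, for miR-1a-1-5p from 3 to 12 and for miR-206-3p from 4 to 16. With the 95th percentile of the viral probes of the same array as the cutoff, from 329.65 to 677.9, the number of members past it was 1, 3 and 1 in the knockdown at 24, 48 and 72 h and 2, 0 and 2 in the control. Few mouse probes passed it either, 10.4%, 12.6% and 7.28% in the knockdown and 11%, 5.42% and 12.9% in the control. No member then passed on all 6 arrays. The probe of miR-122-3p passed on 5, that of miR-9-3p on 3 and that of miR-9-5p on 1.

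Shared letters were counted between the arms with a sequence and the bright probes. Of the 193 mouse probes past 50 on all 6 arrays, 156 had a sequence, and the 8 member arms without one, those of miR-122 and miR-124 among them, were not compared. The longest run of bases shared with any of these was 8 for miR-9-3p (with miR-693-5p), 7 for miR-1a-1-5p (with 4 miRNAs), 8 for miR-206-3p (with 3) and 9 for miR-9-5p (with miR-708-5p). For miR-206-5p, below 0 on every array, it was 11, with miR-1a-1-5p. The GC content was 31.8% for miR-9-3p, 30.4% for both miR-1a-1-5p and miR-206-5p, and 45.5% for miR-206-3p. For comparison its median was 47.8% over the 156 and 50% over 484 probes that never passed. The pair with equal GC content, miR-1a-1-5p and miR-206-5p, lay on opposite sides of the cutoff. Spearman's rho between GC content and the median intensity was 0.072 across 901 mouse probes, which share the same 6 arrays and are not independent replicates.

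Each probe is spotted 4 times, as a pair in blocks 1 to 18 (the first pair) and a pair in blocks 19 to 36 (the second pair), so each array checks itself. Of 108 member values, 37 passed 50. In 33 of these both pairs passed on their own, and in 4 only 1 pair did. In 9 of the 33 the pairs differed by at least 2-fold. On the knockdown array of 48 h both pairs passed for 6 arms. All 6 were brighter in the first pair, 4 of them by at least 2-fold. There miR-9-3p read 1250.5 in the first pair and 247 in the second (5.06-fold), miR-9-5p 962 and 227.5 (4.23-fold), and miR-206-3p 509.5 and 137.5 (3.71-fold). On the control array of 48 h, in contrast, miR-122-3p read 296 and 714, and miR-9-3p 242 and 547.5. On the control array of 72 h, miR-9-3p read 272.5 and 800. The arrays of 24 h had no 2-fold difference between pairs among 5 arms in the knockdown and 7 in the control.

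Mouse probes as a whole differed between the pairs too. Of those that passed in both, 26.5% differed by over 2-fold on the knockdown array of 48 h and 25.7% on the control array of 48 h, against 7.42% on the control array of 24 h. The median absolute log2 difference on the knockdown array of 48 h was 0.12 within a pair and 0.52 between pairs. The spread of neighbouring spots thus understates the error of a probe, and the high miR-9-5p, miR-9-3p and miR-206-3p values of the knockdown at 48 h rest mainly on the first pair.

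**Figure D3:**
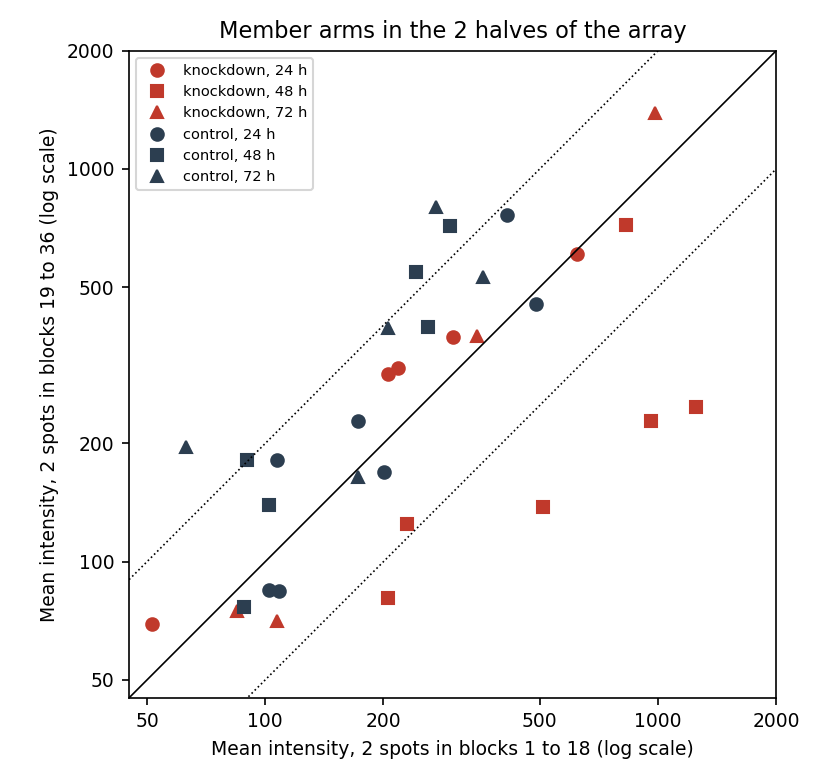
Mean background-subtracted intensity of the member arms in the 2 spots of blocks 1 to 18 (x) and the 2 spots of blocks 19 to 36 (y), both on log axes in arbitrary units, for the 33 member values that passed 50 in both pairs. The diagonal marks equal pairs and the dotted lines 2-fold, and 9 of the 33 values lie beyond 2-fold.

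The first comparison asked whether the arms differ between the TGF-β1 knockdown and the control. It used log2 intensities after background correction and quantile normalisation, with time as a factor in limma and Benjamini-Hochberg adjustment over the 372 mouse probes that passed 50 on at least 3 arrays. Of the 18 arms, 6 were tested: miR-124-3p, miR-9-5p, miR-9-3p, miR-1a-1-5p, miR-206-3p and miR-122-3p. The other 12 were too dim. None of the 6 passed the threshold, 0 of 372 probes did (0%), and 1 probe, not a member, had an unadjusted p under 0.05. With 1 culture a time, the times stand in for replicates, and the spread of a line holds time and culture together.

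Only miR-122-3p had lines that did not overlap, the lowest knockdown array at 9.67 and the highest control array at 9.57 in normalised log2 intensity. Its knockdown arrays averaged 9.80 ± 0.20 (SD, n = 3) and its control arrays 9.43 ± 0.16 (SD, n = 3). They differed by 0.38, and the 95% interval ran from -0.93 to 1.69 (adjusted p = 0.998 in limma). Among the 372 probes the lines of 27 did not overlap (7.26%), beside this 1 of 6 members. For miR-124-3p the knockdown arrays averaged 8.25 ± 0.57 (SD, n = 3) and the control arrays 7.66 ± 1.10 (SD, n = 3). The difference of 0.58 had an interval of -0.36 to 1.53 (adjusted p = 0.998 in limma), and without the spots of high background it was 0.090. That of miR-122-3p was then 0.44.

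The other differences of normalised log2 intensity were smaller than or similar to their standard errors. They were -0.40 ± 0.63 (SE) for miR-1a-1-5p, -0.33 ± 0.62 for miR-9-3p, 0.23 ± 0.66 for miR-9-5p and 0.033 ± 0.51 for miR-206-3p. Of the 6, 4 lay above 0 and 2 below, with a median of 0.13, while over all 372 probes the median was -0.11 and 42.2% lay above 0. The 95% intervals of the 6 reached 0.95 to 1.48 to either side, so a 2-fold difference in one of the directions lies inside each interval.

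**Figure D4:**
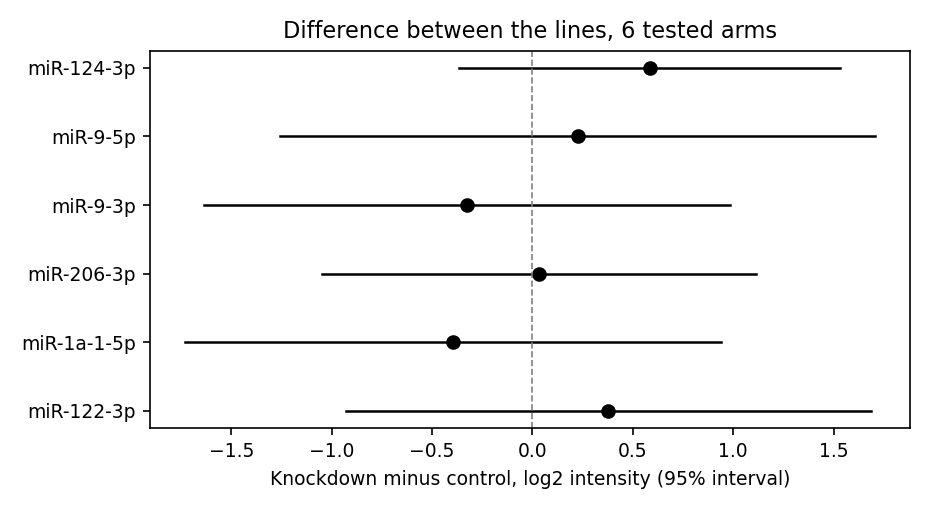
Knockdown minus control difference in normalised log2 intensity of the 6 tested arms (points), with 95% intervals from limma on 6 arrays (bars) and a dashed line at 0. Every interval includes 0, and the estimates run from -0.40 for miR-1a-1-5p to 0.58 for miR-124-3p.

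The second comparison asked whether the arms moved with time. None of the 372 probes passed the threshold for a slope per day in limma (0%), and 9, of which 1 is a member, had an unadjusted p under 0.05. That member was miR-124-3p, with a slope of -0.77 ± 0.24 (SE) log2 per day and a 95% interval from -1.30 to -0.24 (adjusted p = 0.999 in limma). Its lowest array was the control of 72 h, and without the spots of high background the slope was -0.40. The slopes of the other 5 lay between -0.17 for miR-1a-1-5p and 0.14 for miR-9-5p. Their intervals all included 0. The slope of miR-122-3p was 0.047, and 0.0029 without the spots of high background.

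The last comparison asked, through an interaction of line with day, if the lines followed different courses. None of the 372 probes passed (0%), 9 had an unadjusted p under 0.05 in limma, and none of these was a member. For miR-1a-1-5p, whose knockdown values were lower at each later time, the knockdown slope minus the control slope was -0.86 ± 0.58 (SE) log2 per day, and its interval ran from -2.20 to 0.49 (adjusted p = 0.931 in limma). The slope difference of miR-124-3p was 0.44, and -0.30 without the spots of high background, so its sign rested on those spots. For the other 4 it lay between -0.22 for miR-9-5p and 0.22 for miR-122-3p.

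At a single time each line has 1 array, so sizes are given without a test, over arms past 50 on at least 1 of the 2 arrays. At 24 h none of 9 arms differed by 2-fold, where 2.66% of 413 mouse probes were higher in the knockdown and 8.47% lower. At 48 h, 2 of 8 were higher and 0 lower, beside 21.5% and 13.2% of 441. Those were miR-206-3p, 2.04-fold higher in the knockdown, and miR-9-5p, at least 3.20-fold higher against a control below the cutoff. Both belong to the 3 arms whose first pair on that knockdown array was over 3-fold brighter than the second. At 72 h, 0 of 6 were higher and 2 lower, beside 18.5% and 25.3% of 454. These were miR-1a-1-5p, 2.19-fold higher in the control, and miR-9-5p, at least 2.00-fold higher in the control. The 6 arms leave out miR-124-3p and miR-133b-3p, whose control means at 72 h passed 50 only without the spots of high background (81 and 74.3). Their differences at 72 h without those spots are not given. The normalised difference of miR-206-3p was -0.37, 1.03 and -0.56 at the 3 times, and that of miR-122-3p was 0.14, 0.41 and 0.58, the last with 1 spot of high background in the control.

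Other miRNAs known from brain and muscle were read in the same way. Of 37 arms of 16 further neuronal miRNAs, between 4 and 11 passed 50 on an array (10.8% to 29.7%, beside 28.5% to 33.2% of mouse probes). On all 6 arrays 3 passed (8.11%, beside 17.1%): miR-433-5p (170.5 to 1923.5), miR-137-5p (138.5 to 1226) and miR-485-3p (225 to 433). The opposite arms miR-433-3p, miR-137-3p and miR-485-5p passed on none, and miR-137-3p is the arm known to act in neurons. The further neuronal arms past 50 on any array were miR-138-2-3p and miR-212-3p (5 arrays each), miR-129-2-3p (4), miR-132-5p, miR-218-5p, miR-7a-5p and miR-323-3p (3 each) and miR-7b-3p (2). Their opposite arms passed on none. Both 3p and 5p arms are among them, so miR-137 does not stand for the list. Of 11 arms of 5 further muscle miRNAs, 2 passed on all 6 (18.2%), miR-208a-5p (93 to 426.5) and miR-208b-5p (82.25 to 181), while miR-208a-3p and miR-208b-3p, the usual arms of these miRNAs encoded in myosin genes, passed on none. Of the 37 and 11 arms, 10 and 3 were tested between the lines, and 0 of them passed in limma (smallest adjusted p over all probes 0.998). Among the neuronal ones 5 were above 0 and 5 below, with a median difference of -0.030. Among the muscle ones 0 were above 0 and 3 below, with a median of -0.112, beside -0.107 over all 372 probes.

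The labelled cell type was checked with 23 arms of 11 miRNAs known from intestinal epithelium. Of these, 2 passed on all 6 arrays (8.70%), miR-31-5p (642.25 to 2883.25) and miR-147-3p (59.25 to 1341.5). On single arrays 3 to 5 of the 23 passed (13% to 21.7%), and 16 passed on none (69.6%, beside 53.1% of mouse probes). The probes of miR-192-5p, miR-194-5p, miR-215-5p, miR-200a-3p, miR-200b-3p and miR-429-3p were among those 16, while miR-200c-3p (-64.75 to 174) and miR-141-5p (21.75 to 144.25) passed on 5 arrays each. Of broadly expressed miRNAs, 21 of 62 arms (33.9%) passed on all 6. On single arrays 29 to 38 of those 62 did (46.8% to 61.3%), and miR-21a-5p ran from 969.25 to 4675.25. Of the fibroblast and smooth muscle list, 2 of 9 arms passed 50 on all 6 arrays (22.2%, beside 17.1% of mouse probes). They were miR-199a-5p (1043.75 to 4414.25) and miR-214-3p (91.5 to 654.5). On single arrays 4 to 8 of the 9 passed (44.4% to 88.9%, beside 28.5% to 33.2% of mouse probes), and 1 passed on none (11.1%). Of 47 arms of other tissue-restricted miRNAs, 4 passed on all 6 (8.51%), among them miR-211-5p, miR-302a-3p and miR-883a-5p.

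Likeness of pattern was measured by Pearson's r over the 6 normalised arrays against the other 371 tested probes, with no test. The 2 most alike were miR-140-3p (0.978) and miR-30d-5p (0.972) for miR-9-3p, and miR-668-3p (0.981) and miR-489-5p (0.954) for miR-1a-1-5p. For miR-206-3p they were miR-1843a-3p (0.981) and miR-146b-5p (0.973). For miR-122-3p they were miR-207 (0.950) and miR-340-5p (0.937). The highest of 371 values over 6 arrays is high by selection, and the probes share arrays and scaling.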

How the data were processed

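Per the labels' protocols, total RNA carried the dye Hy3 on its 3' ends, and 1-colour locked nucleic acid arrays were used. The authors deposited foreground and background-subtracted intensities per spot, unscaled between arrays, per the file headers. Their second deposited table held a ratio per probe, which equalled the median background-subtracted intensity divided by 1 number per array (313.5 to 397) within a tolerance of 1e-06. Column medians of the ratio ran from 0.259 to 0.514, no probe was centred, and how the divisors were chosen is unknown. The sources used here give neither the scanner software nor the array version.

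Intensities were corrected by normexp (offset 50) in limma 3.58.1 (R 4.3.3), spots averaged as log2 values, and 3439 mouse, viral and unnamed probes quantile normalised. Mouse probes at 50 or more on at least 3 of 6 arrays (372, with 754 left out) were tested with trend and robust eBayes, adjusted by Benjamini-Hochberg at 0.05. The models were tested on simulated data, whose outcome is not given here, so nothing is drawn from it. At a single time, a side below 50 gave a bound against the higher of its own value and the lowest normalised value past 50. Sequences are RefSeq's, matched by name.

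The members and lists were chosen with earlier results of these data known. Every arm was reported, with values by array for those past 50 on any array. From each list up to 3 arms past 50 on all 6 arrays were named by mean level. Opposite arms, viral probes, the further neuronal arms past 50 on any array and the epithelial arms that never passed were named after their values were seen. Times pair the arrays and form the block. The deviations of paired arrays correlated at -0.30, -0.52 and -0.34 over probes.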

Additional observations from a re-analysis of the deposited data

How the results depend on the processing

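No member passed in any comparison under any alternative, with smallest limma adjusted p-values of 0.573 between lines, 0.589 for the slope and 0.479 for the slope difference. Over all tested probes 0 were called between the lines, except without 48 h, where 3 were, so leaving out a time gave 0 to 3. With no replicate block for time no call changed. The slope difference could not be fitted without a time, since 4 arrays leave no residual degree of freedom. Of the counts, 168 stayed within 1.5 times and 22 others did not. At a cutoff of 100, 2 of 18 members passed on the knockdown array of 72 h, beside 24.2% of mouse probes. On the control array of 24 h 5 members did, beside 26.2% of mouse probes. On all 6 arrays 2 members passed 100, a count without a share of mouse probes to set beside it. At the viral 95th percentile the numbers were 1, 3 and 1 in the knockdown, 2, 0 and 2 in the control and 0 on all 6. Of the mouse probes 5.42% to 12.9% passed it on an array. With blocks 1 to 18 alone, chosen after seeing the data, 8 passed on the control array of 72 h.

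Members past 2-fold at a single time depended on background correction and scaling. Shares of all mouse probes are not given for these settings, so the counts say nothing particular about the members. With intensities floored at 16, 2 were lower at 24 h, 3 lower at 48 h, 1 higher and 4 lower at 72 h. An offset of 16 gave 1 lower at 48 h. No scaling gave 1 higher and 2 lower at 48 h and 1 higher at 72 h. Median scaling gave 1 higher and 0 lower at 72 h, and cyclic loess 1 lower at 72 h.

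Several uncalled differences turned sign, and the cause was not tested. Between lines, miR-9-3p was 0.22 under median scaling and 0.077 in blocks 1 to 18, and miR-9-5p was -0.14 with floored intensities. The miR-206-3p difference was -0.084 with floored intensities, -0.12 without scaling and -0.14 in blocks 19 to 36. Leaving out a time gave -0.90 to 0.90 for miR-9-5p and -0.46 to 0.33 for miR-206-3p, negative without 48 h. For the slope, median scaling gave -0.092 for miR-9-3p, -0.074 for miR-9-5p and -0.035 for miR-122-3p. Blocks 1 to 18 gave -0.082 for miR-9-3p, and miR-206-3p was 0.038 with the authors' ratio and 0.011 in blocks 19 to 36. Leaving out a time gave slopes of -0.058 to 0.17 for miR-9-3p, -0.14 to 0.42 for miR-9-5p, -0.34 to 0.32 for miR-206-3p, -0.19 to 0.28 for miR-122-3p and -1.29 to -0.26 for miR-124-3p. The slope difference of miR-124-3p was -0.29 with floored intensities, -0.26 without scaling, and -0.30 both in blocks 1 to 18 and without spots of high background. For miR-9-3p it was 0.77 under median scaling, 0.036 with mouse probes only and 0.24 in blocks 1 to 18. Median scaling gave 0.22 for miR-9-5p and 0.38 for miR-206-3p, and blocks 1 to 18 gave -0.050 for miR-122-3p.

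The main limits are 1 array per line and time, differences between the pairs of spots of a probe, and a cutoff that 22.8% to 29.8% of viral probes pass. Values near 50, as for miR-206-3p and the miR-133 arms, lay within the range of the viral probes. So did the brighter members, since the brightest viral probe exceeded every member on every array.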
